A study of Mus musculus with 18 samples.

Results

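tRNA-Leu-CAA is the leucine tRNA whose CAA anticodon reads the UUG codon, and in the mouse its genes carry an intron. All rows of the deposited table whose name starts with tRNA-Leu-CAA- and ends in one of the mature or precursor read types were taken, which gave 28 of 3574 rows. Of these, 16 count mature reads of 4 isodecoders (genes with the same anticodon and a different mature sequence, tRNA-Leu-CAA-1 to 4) and 12 count precursor reads of 4 loci (pre-tRNA-Leu-CAA-1-1, 2-1, 3-1 and 4-1), out of 213 isodecoders and 335 pre-tRNA loci in all. A further 4 antisense rows of the family were left out and held 0 reads. Reads were present in at least 1 library in 19 of the 28 rows, and in 4 of the 12 precursor rows.

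The table holds 18 libraries of hippocampal tRNA-sized RNA, each from 1 male mouse. WT mice and 5xFAD mice, on a B6SJL background, were injected on both sides in CA1 and the dentate gyrus at 6 months of age and taken 4 weeks later. 5xFAD mice express mutated human APP and presenilin-1 from the Thy-1 promoter, so the transgenes are driven in neurons. All mice carried a neuron-targeted rAAV with an H1-driven hairpin and RSV-driven GFP, and the hairpin was either a control (shCT) or one against RTP801 (shRTP801), the stress-response protein encoded by Ddit4. Control hairpin was given to 5 WT and 3 5xFAD mice (WT shCT and 5xFAD shCT), and 4 WT and 6 5xFAD mice received the hairpin against RTP801 (WT shRTP801 and 5xFAD shRTP801). The transcript of RTP801 lies outside tRNA-sized RNA, so whether and how far it was silenced in these mice was not analysed here, and no group lacks the viral vector.

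Pre-tRNAs are transcribed by RNA polymerase III with a 5′ leader and a 3′ trailer, which are trimmed away before the CCA end is added. In an intron-containing pre-tRNA the TSEN endonuclease also cuts out the intron next to the anticodon, and the tRNA ligase complex with its catalytic subunit RTCB (HSPC117) joins the exons. The wobble cytidine of this tRNA is methylated by NSUN2 while the intron is still present. In RefSeq the 4 mouse Leu-CAA genes, intron included, are 105 to 107 nucleotides long, against 82 to 83 nucleotides for the other 21 leucine tRNA genes. The RNA was cut from a gel between 60 and 100 nucleotides and then hydrolysed into fragments for sequencing. RefSeq names these genes n-TLcaa1 to 4, and 3 of them lie on one chromosome and 1 on another; these names could not be matched to the 4 locus numbers of the table.

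Total reads per library ran from 18126375 to 34488923, with 9850676 to 20292469 mature and 47875 to 318628 precursor reads. In 3 libraries (WT shCT mouse 5, WT shRTP801 mouse 4 and 5xFAD shRTP801 mouse 7) mature tRNA made up 98.0% to 98.7% of all reads, against 31.9% to 85.8% in the other 15. These 3, with WT shCT mouse 11 and 5xFAD shRTP801 mouse 12, also had more than 100000 precursor reads, whereas the other 13 had at most 87370, and no 5xFAD shCT mouse was among them. The brain snoRNA Snord116 was read in 15 libraries and not in those 3, Mir124 in 17 and the brain isodecoder tRNA-Arg-TCT-4-1 in all 18. Mir9, also a brain marker looked for, was read in only 4 libraries, with at most 12 reads. No rows of Snord115 or of the liver, muscle and blood microRNAs looked for were found. The precursor differences with an exact permutation p under 0.05 are given with and without these libraries.

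Over all libraries the family held 4712 precursor reads and 257764 mature reads, or 54.7 mature reads for each precursor read. Its mean share was 0.400% ± 0.371 (SD, n = 18) of the precursor reads of a library, place 24 of 48 pre-tRNA families, and 0.102% ± 0.122 (SD, n = 18) of the mature reads, place 42 of 50. Among the 5 leucine anticodons, Leu-CAA was first in precursor share and the fourth in mature share over all libraries, but these places changed between groups. In precursor share it was above Leu-AAG in 5xFAD shCT (0.992% against 0.291%) and 5xFAD shRTP801 (0.307% against 0.267%) and below it in WT shCT (0.238% against 0.341%) and WT shRTP801 (0.300% against 0.332%); in all groups but 5xFAD shCT the gap was smaller than the SD of both families. In mature share it was the second in WT shRTP801 and the fourth in the other 3 groups. The whole precursor and trailer rows were at 0 in every library, so all 4712 precursor reads were counted as partial precursor. The table does not say which stretch of the precursor a partial read covers, nor whether it holds the intron. A count of 0 whole precursor reads allows a share of up to 0.0637% of them, for counting error only. The genes, at 105 to 107 nucleotides, are longer than the gel window of 60 to 100 nucleotides. The RNA was also hydrolysed and read as pairs of 50 base pairs, so a whole Leu-CAA precursor could hardly be read. The 0 and its bound therefore cannot show whether whole Leu-CAA precursors were absent from the tissue. How far the gel window bears on the precursor shares compared below was not tested. Over all pre-tRNAs, whole precursor reads were 0.261% and trailer reads 0.0250% of precursor reads.

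The 4 loci were not read equally. Locus 3-1 gave 2215 reads and locus 2-1 gave 1900, together 87.3% of the precursor reads of the family, while 4-1 gave 306 and 1-1 gave 291. Per mouse, 2-1 and 3-1 both exceeded 4-1 in 18 of 18 mice and 1-1 in 17 of 18, the exception being WT shCT mouse 11 with 10 family reads in all. Locus 3-1 was above 2-1 in 14 of 18 mice, equal in 1 and below in 3, and 4-1 was above 1-1 in 9 and below in 8, so the order within each pair did not hold over all mice. The 95% Wilson interval of a single mouse reached, in the median, 20.2% of the value to either side at 3-1, 21.5% at 2-1, 63.2% at 1-1 and 68.7% at 4-1; these intervals cover counting error only, since reads without molecular identifiers are not independent molecules.

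The first comparison asked how the precursor reads of the family differed between 5xFAD and WT mice under the control hairpin. Every one of the 4 loci had a higher mean share in 5xFAD shCT mice, from 1.74 to 2.46 on the log2 scale, and at locus 2-1 the groups did not overlap. Loci 1-1, 3-1 and 4-1 had p from 0.0536 to 0.0714 in the two-sided exact permutation test of group means (smallest p allowed 0.0179), so they missed a threshold of 0.05. No locus passed after adjustment over all loci in limma.

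At locus 2-1, the share of precursor reads was 0.109% in WT shCT mouse 3, 0.00175% in mouse 5, 0.146% in mouse 6, 0.00230% in mouse 11 and 0.184% in mouse 15. In 5xFAD shCT it was 0.528% in mouse 1, 0.226% in mouse 16 and 0.586% in mouse 18. All 3 5xFAD shCT values were thus above all 5 WT shCT values, with means of 0.447% ± 0.193 (SD, n = 3) and 0.0885% ± 0.0833 (SD, n = 5), with a log2 ratio of 2.33 (exact permutation p = 0.0179). Over all precursor loci, 6.91% had 5xFAD shCT values that were higher without overlap, and 6.91% were higher with an exact p under 0.05.

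At locus 3-1, WT shCT mice had 0.112%, 0.00569%, 0.171%, 0.00230% and 0.330% (mice 3, 5, 6, 11 and 15) and 5xFAD shCT mice had 0.549%, 0.260% and 0.432% (mice 1, 16 and 18). WT shCT mouse 15 lay above 5xFAD shCT mouse 16, so the groups overlapped, and the log2 ratio was 1.74 (exact permutation p = 0.0536). At locus 1-1, the 3 5xFAD shCT mice had 0.0198%, 0.0256% and 0.149%, of which mouse 18 alone stood above the WT shCT range of 0.000876% to 0.0313%. At locus 4-1, they had 0.0676%, 0.0236% and 0.107%, against 0% to 0.0255% in WT shCT; the 0 was WT shCT mouse 11, where 0 reads allow up to 0.00230%. The log2 ratios were 2.46 at 1-1 and 2.34 at 4-1 (exact permutation p = 0.0714 and p = 0.0536). 5xFAD shCT mouse 18 was the highest of the 3 at loci 1-1, 2-1 and 4-1, and mouse 1 at 3-1. In bulk RNA, a difference in the number of cells and one in RNA per cell cannot be told apart.

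**Figure D1:**
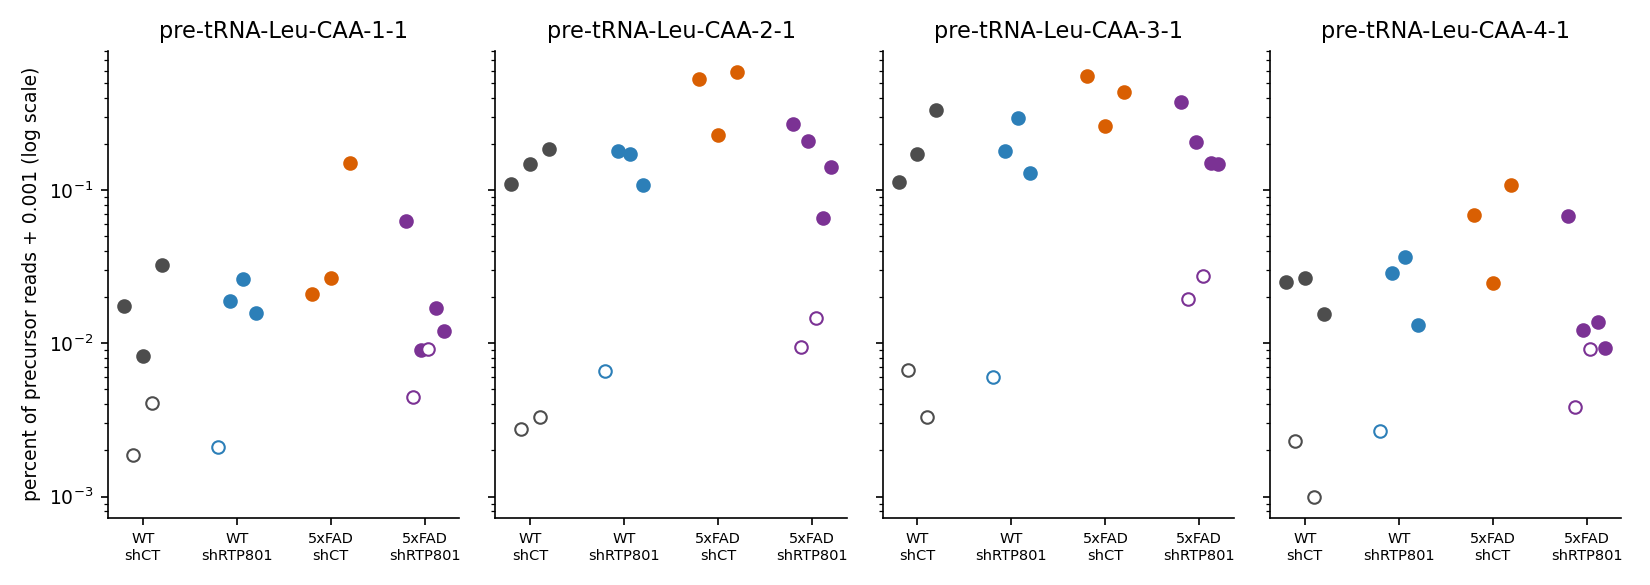
Percentage of precursor reads (plus 0.001, log axis) at each Leu-CAA locus, 1 point per mouse, by group; open points are the 5 libraries with more than 100000 precursor reads. At 2-1 the 3 5xFAD shCT points lie between 0.226% and 0.586%, above all WT shCT points, and open points lie at the bottom of their groups except in 5xFAD shRTP801 at locus 1-1, where 1 open point lies just above a closed one.

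WT shCT mice 5 and 11, which are among the 5 libraries with more than 100000 precursor reads, were the lowest WT shCT mice at all 4 loci. Without the 3 libraries of over 95% mature reads, 2-1 kept non-overlapping groups (log2 ratio 2.02, exact permutation p = 0.0286, the smallest that 3 against 4 mice allow). Without all 5, the groups at 2-1 still did not overlap, at a log2 ratio of 1.61 (exact permutation p = 0.1, the smallest that 3 against 3 allow). The test on the log2 percentage in place of the percentage gave p = 0.0893 at 2-1 (exact permutation test), and leaving out any single mouse left p under 0.05 there. At other loci a single mouse brought p under 0.05: without WT shCT mouse 15 the log2 ratio was 3.23 at 1-1 and 2.51 at 3-1 (exact permutation p = 0.0286 for both), and without 5xFAD shCT mouse 16 it was 1.98 at 3-1 and 2.74 at 4-1 (p = 0.0476 for both). The part that these libraries play in the difference was not tested further.

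The family sum gave 0.238% ± 0.236 (SD, n = 5) in WT shCT and 0.992% ± 0.399 (SD, n = 3) in 5xFAD shCT mice, with a log2 ratio of 2.06 (exact permutation p = 0.0357), and 4.17% of the 48 families were higher with an exact p under 0.05. It overlapped only through WT shCT mouse 15 (0.560%) and 5xFAD shCT mouse 16 (0.535%). Against all reads of the library in place of the precursor reads, the level of the family, in RPM of the library, was 6.47, 1.11, 9.48, 0.480 and 7.96 in WT shCT mice 3, 5, 6, 11 and 15 and 26.5, 8.24 and 32.4 in 5xFAD shCT mice 1, 16 and 18 (log2 ratio 2.13, exact permutation p = 0.0357). On that scale, too, mouse 16 lay within the WT shCT range and mice 1 and 18 above it. Without the 3 libraries this log2 ratio was 1.88 (exact permutation p = 0.0571), and without the 5 it was 1.49 (p = 0.2). The family p was over 0.05 without 5xFAD shCT mouse 1 or 18 (log2 ratios 1.93 and 1.84, exact permutation p = 0.0952 for both), without WT shCT mouse 3 or 6 (2.10 and 2.24, p = 0.0857 for both), without WT shCT mouse 5 or 11 (1.75 for both, p = 0.0571 for both), and without the 5 libraries (1.34, p = 0.2).

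**Figure D2:**
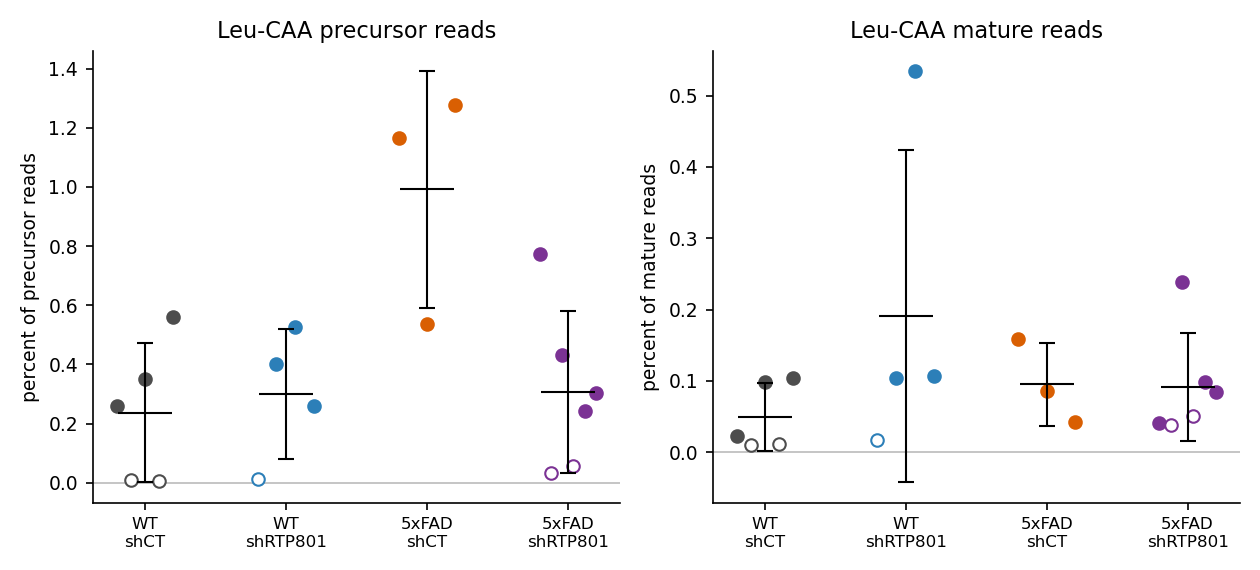
Percentage of precursor reads (left) and of mature reads (right) that belong to Leu-CAA, 1 point per mouse, with the mean and SD of each group; open points are the 5 libraries with more than 100000 precursor reads. The left panel shows 5xFAD shCT mice at 0.535% to 1.28%, and the right panel shows WT shRTP801 mouse 17 at 0.534%, far above the rest of its group.

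Fitted with limma over all 18 libraries and 333 loci, the log2 change from WT shCT to 5xFAD shCT was 3.75 ± 1.51 (SE) at 2-1, 3.21 ± 1.46 at 3-1, 2.92 ± 1.11 at 4-1 and 2.42 ± 1.01 at 1-1. These were places 1, 3, 7 and 16 of 333 when loci are ordered by their change, and the adjusted p was 0.313 at each in limma. The fit used all 18 libraries, among them WT shCT mice 5 and 11, the lowest WT shCT mice at all 4 loci. At 2-1 its change of 3.75 stands beside a log2 ratio of group means of 2.33. Places and unadjusted p-values of the 4 loci without the 3 or the 5 libraries are not given here. An unadjusted p under 0.05 was found at 4 of the 4 Leu-CAA loci, against 15.6% of all loci (52, of which 35 higher). Of the loci with such a p, 28 of 52 were higher after centring on the class median, 11 of 15 on the deposited normalized counts, 11 of 49 by edgeR and 17 of 55 by DESeq2, so the share of higher calls over all loci was not stable. No locus of any family had an adjusted p under 0.05 by limma, edgeR or DESeq2. The median change was 3.07 for Leu-CAA and 0.03 over all loci, of which 169 of 333 were higher. Among the other intron-containing pre-tRNAs (Arg-TCT, Ile-TAT and Tyr-GTA), 13 of 16 measured were higher with a median of 1.34 and 4 had an unadjusted p under 0.05. Of the 19 other leucine loci, which have no intron, 17 were higher with a median of 0.53 and 0 had an unadjusted p under 0.05. Leu-CAA thus had a larger median than both lists, a description for which no test was made.

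**Figure D3:**
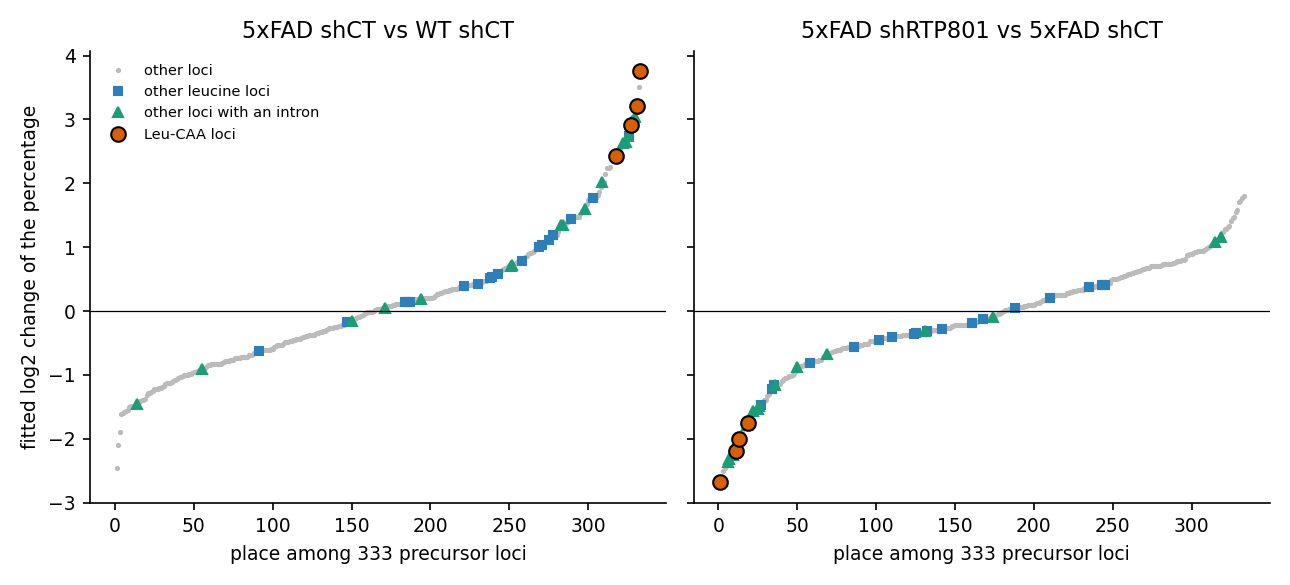
Fitted log2 change of the percentage of precursor reads for 333 loci, in rising order, for 5xFAD shCT against WT shCT (left) and 5xFAD shRTP801 against 5xFAD shCT (right). Leu-CAA loci (large circles) take places 1, 3, 7 and 16 from the top on the left and lie near the bottom on the right, with 2-1 at the very end of both orders; the 5xFAD shCT mice enter both panels.

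The second comparison asked how 5xFAD mice with the hairpin against RTP801 differed from those with the control hairpin. It shares the 3 5xFAD shCT mice with the first, so a high value there moves both. All 4 loci had a lower mean share in 5xFAD shRTP801 mice, with log2 ratios of -1.93 to -1.43. The exact permutation p was under 0.05 at loci 2-1, 3-1 and 4-1, and the groups overlapped at every locus.

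At locus 2-1, the 6 5xFAD shRTP801 mice ran from 0.00847% (mouse 7) over a median of 0.102% to 0.270% (mouse 2). Only mouse 2 reached the range of the 5xFAD shCT mice given above. The means were 0.117% ± 0.107 (SD, n = 6) and 0.447% ± 0.193 (SD, n = 3), with a log2 ratio of -1.93 (exact permutation p = 0.0238, smallest allowed 0.0119). At 3-1, the values ran from 0.0185% over a median of 0.147% to 0.375%, again with mouse 2 highest, at a log2 ratio of -1.43 (exact permutation p = 0.0476). At 4-1, they ran from 0.00282% over 0.00976% to 0.0666% (log2 ratio -1.85, exact permutation p = 0.0238), and at 1-1 from 0.00345% over 0.00965% to 0.0620% (log2 ratio -1.84, p = 0.0952). 5xFAD shRTP801 mouse 2 was the highest of its group at all 4 loci, with 499 family reads and 0.773% of precursor reads. Over all loci, 9.31% were lower with an exact p under 0.05 and 4.5% were lower without overlap.

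The family sum was 0.307% ± 0.274 (SD, n = 6) against 0.992% ± 0.399 (SD, n = 3), with a log2 ratio of -1.69 (exact permutation p = 0.0238), beside 14.6% of the 48 families lower with an exact p under 0.05. As a share of all reads, the log2 ratio was -1.23 (exact permutation p = 0.0595). Mice 7 and 12 of this group are among the 5 libraries with many precursor reads and had its lowest shares (0.0333% and 0.0566%). Without the 5, the log2 ratio was -0.92 at 3-1 (exact permutation p = 0.114), -1.42 at 4-1 (p = 0.171), -1.39 at 2-1 (exact permutation p = 0.0571) and -1.18 for the family (p = 0.0857), so none of these kept p under 0.05. Without the 3 it was -1.20 at 3-1 (exact permutation p = 0.0536), -1.63 at 4-1 (p = 0.0714), -1.69 at 2-1 (p = 0.0357) and -1.46 for the family (p = 0.0536). At 2-1, p was also over 0.05 without 5xFAD shCT mouse 1 or 18 (-1.80 and -1.69, exact permutation p = 0.0714 for both) or 5xFAD shRTP801 mouse 19 (-1.99, p = 0.0536). For the family, p was over 0.05 without 5xFAD shCT mouse 1 (-1.56) or 18 (-1.47), with an exact permutation p = 0.0714 for both, and without 5xFAD shRTP801 mouse 7 (-1.46), 12 (-1.47), 14 (-1.63) or 19 (-1.69), with p = 0.0536 for each. At 3-1, leaving out any mouse but 5xFAD shCT mouse 16 or 5xFAD shRTP801 mouse 2 gave a log2 ratio of -1.53 to -1.18 (exact permutation p from 0.0536 to 0.107). At 4-1, leaving out 5xFAD shCT mouse 1 or 18 or 5xFAD shRTP801 mouse 7, 8, 12, 14 or 19 gave -1.84 to -1.31 (exact permutation p from 0.0714 to 0.0893). Without 5xFAD shRTP801 mouse 2, the log2 ratio at 1-1 was -2.80 (exact permutation p = 0.0179).

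In limma, the log2 change was -2.68 ± 1.46 (SE) at 2-1, -2.19 ± 1.07 at 4-1, -2.01 ± 1.41 at 3-1 and -1.75 ± 0.975 at 1-1, with adjusted p of 0.598 to 0.649. Locus 2-1 was place 333 of 333, the lowest of all. None of the 4 loci had an unadjusted p under 0.05, against 7.51% of all loci (25, of which 9 higher, against 20 of 28 after centring on the class median, 3 of 5 on the deposited normalized counts, 23 of 31 by edgeR and 18 of 27 by DESeq2), and 0 of 333 passed the adjusted threshold by limma, edgeR or DESeq2. The median change was -2.10 for Leu-CAA, -1.51 for the other intron-containing loci (14 of 16 lower) and -0.31 for the other leucine loci (13 of 19 lower). Over all loci it was -0.13, with 180 of 333 lower.

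In WT mice, the precursor share of the family under shRTP801 lay within the spread of that under shCT. It was 0.0134%, 0.401%, 0.525% and 0.261% in WT shRTP801 mice 4, 10, 17 and 21, with a mean of 0.300% ± 0.220 (SD, n = 4). The log2 ratio to WT shCT was 0.34 (exact permutation p = 0.659, smallest allowed 0.00794), and the exact permutation p at single loci was from 0.484 to 0.810. Between 5xFAD shRTP801 and WT shRTP801 mice, the family log2 ratio was 0.03 (exact permutation p = 0.962, smallest allowed 0.00476), and p was from 0.886 to 0.990 at single loci. Limma gave 0 of 4 Leu-CAA loci with an unadjusted p under 0.05 in both comparisons, beside 10.2% and 2.1% of all loci, and 0 adjusted calls in either.

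The change under shRTP801 was also compared between the genotypes, with the same 3 5xFAD shCT mice as in the first 2 comparisons. The difference of differences was -0.747 percentage points for the family (exact permutation of treatment within genotype, p = 0.0251), -0.356 at 2-1 (p = 0.0159), -0.288 at 3-1 (p = 0.0566), -0.0540 at 4-1 (p = 0.0290) and -0.0497 at 1-1 (p = 0.103). This permutation test was added after the data were seen. Its null is no change under shRTP801 in either genotype, so a low p alone does not show that the changes differed. In limma, the same contrast was -3.83 ± 2.01 (SE) at 2-1 and between -2.22 and -3.07 at the other 3 loci, with adjusted p of 0.328 to 0.493; 0 of 4 had an unadjusted p under 0.05, beside 15.3% of all loci (51), and 0 of 333 an adjusted one. Without the 5 libraries, the exact permutation p was 0.0957 for the family (-0.559), 0.0586 at 2-1 (-0.281) and 0.141 at 4-1 (-0.0452), so none of the 3 kept p under 0.05. Without the 3 libraries it was 0.0311, 0.0184 and 0.0444. The family p was also over 0.05 without WT shRTP801 mouse 17 (-0.672, exact permutation p = 0.0506) and without 5xFAD shCT mouse 1 or 18 (-0.661, p = 0.0601 and -0.605, p = 0.0672).

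Within the family, locus 2-1 made up 45.3%, 42.3% and 46.0% of the Leu-CAA precursor reads in 5xFAD shCT mice 1, 16 and 18. In WT shCT mice 3, 5, 6, 11 and 15 it made up 41.7%, 18.2%, 41.7%, 30.0% and 32.8%, and the values of the groups did not overlap. The means were 44.5% ± 1.97 (SD, n = 3) and 32.9% ± 9.74 (SD, n = 5), a difference of 11.6 percentage points (exact permutation p = 0.0714). WT shCT mice 5 and 11 rest on 22 and 10 family reads. The nearest values were 42.3% in 5xFAD shCT mouse 16 (272 family reads) and 41.7% in WT shCT mice 3 and 6 (175 and 192). The absence of overlap thus rests on a narrow gap, which was not set against counting error. How often loci of other families made up non-overlapping parts of their family was not counted. Locus 3-1 made up 43.2% ± 8.08 (SD, n = 3) and 48.0% ± 12.2 (SD, n = 5) in the same groups (exact permutation p = 0.607). In 5xFAD shRTP801 mice, 2-1 was at 34.1% ± 10.6 (SD, n = 6), 10.4 points below 5xFAD shCT (exact permutation p = 0.167). Locus 2-1 thus missed an exact permutation p of 0.05 in the first comparison, and only a narrow gap lay between the groups. Loci 1-1 and 4-1 had p from 0.514 to 0.946 in all 4 comparisons (exact permutation tests).

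**Figure D4:**
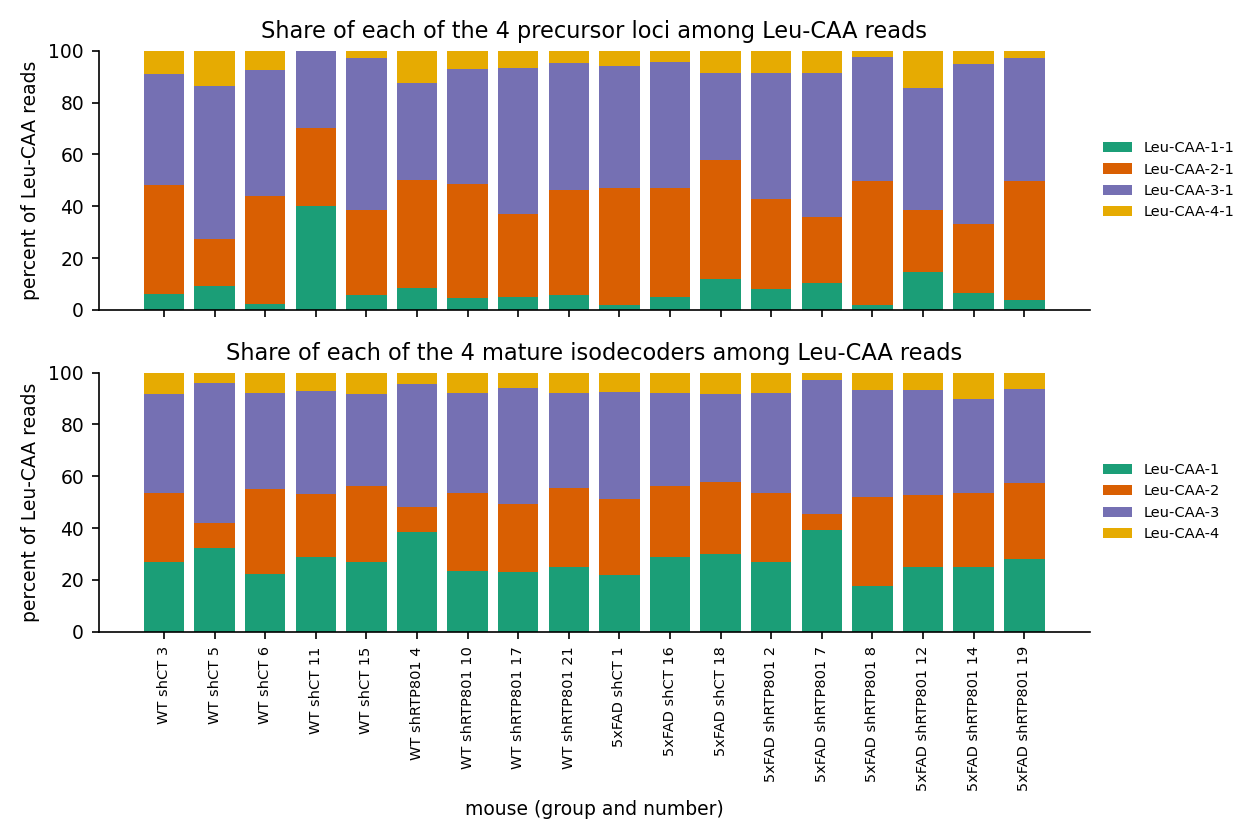
Percentage of the precursor reads (top) and mature reads (bottom) of Leu-CAA at each locus or isodecoder, 1 bar per mouse, each bar adding to 100%. Loci 2-1 and 3-1 fill most of every upper bar, and isodecoder 2 falls to 6.17% to 9.75% of mature reads in WT shCT mouse 5, WT shRTP801 mouse 4 and 5xFAD shRTP801 mouse 7.

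Mature reads were most frequent for isodecoder 3 (105561), followed by 2 (72018), 1 (62212) and 4 (17973). Isodecoder 3 was the highest and 4 the lowest in 18 of 18 mice, while 2 exceeded 1 in 12 of 18. Precursor and mature reads were thus ordered alike at 3 over 2, but isodecoder 1 held many mature reads although locus 1-1 had few precursor reads. In the 3 libraries with over 95% mature reads, isodecoder 2 made up 6.17% to 9.75% of the mature reads of the family, against 24.5% to 34.5% in the other 15. In the same 3, isodecoder 1 was at 32.2% to 39.3% against 17.6% to 30.1%, isodecoder 3 at 47.4% to 54.0% against 33.7% to 45.0%, and isodecoder 4 at 2.86% to 4.56% against 5.83% to 10.3%. The ranges of all 4 isodecoders in these 3 libraries thus lay apart from those in the other 15. The 4 values are parts of the same family sum, so a fall at isodecoder 2 must be matched by a rise elsewhere. They are therefore not 4 separate findings. Whether isodecoders of other families also set these 3 libraries apart was not tested. Between the groups, no isodecoder's part of the family had an exact p under 0.05 (exact permutation tests, 16 comparisons, p from 0.417 to 1).

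No mature share of the family or of an isodecoder had an exact p under 0.05 in any of the 4 comparisons. The family was at 0.0222%, 0.00964%, 0.0985%, 0.0116% and 0.105% in WT shCT mice 3, 5, 6, 11 and 15 and at 0.158%, 0.0851% and 0.0419% in 5xFAD shCT mice 1, 16 and 18. Mouse 18, which had the highest precursor share of all 18 mice, had the lowest mature share of its group. The log2 ratio was 0.95 (exact permutation p = 0.214), and single isodecoders gave 0.89 to 0.99 (p from 0.196 to 0.304). In WT shRTP801, mature shares were 0.0171%, 0.105%, 0.534% and 0.106% (mice 4, 10, 17 and 21), with a log2 ratio of 1.95 to WT shCT (exact permutation p = 0.0794). Mouse 17 was far above the rest with 76564 mature Leu-CAA reads, and without it the log2 ratio was 0.62 (exact permutation p = 0.339). In 5xFAD shRTP801, the shares ran from 0.0384% over a median of 0.0674% to 0.238% (mouse 8), with log2 ratios of -0.05 to 5xFAD shCT and -1.06 to WT shRTP801 (exact permutation tests, p = 0.940 and p = 0.448).

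In limma over 186 isodecoders, the change from WT shCT to WT shRTP801 was 1.58 ± 0.728 (SE) for isodecoder 1, 1.50 ± 1.10 for 2, 1.68 ± 0.842 for 3 and 1.23 ± 0.796 for 4, with adjusted p from 0.443 to 0.794. Isodecoder 1 alone had an unadjusted p under 0.05, beside 10.8% of all isodecoders (20, all higher). From WT shCT to 5xFAD shCT the changes were 1.08 to 1.46, with 0 of 4 at an unadjusted p under 0.05, beside 5.38% (10) of all. No isodecoder of any family passed the adjusted threshold in limma, and DESeq2 called 1 of 186 in WT shRTP801 against WT shCT, which was not a Leu-CAA isodecoder. The 10 other leucine isodecoders tested had a median of 1.60 in that comparison, close to the 1.54 of Leu-CAA, and the 10 isodecoders of the other intron-containing families had -0.14. In the remaining comparisons of mature isodecoders, 0 of 4 Leu-CAA isodecoders had an unadjusted p under 0.05, beside 1.08% of all for 5xFAD shRTP801 against 5xFAD shCT, 0.538% for 5xFAD shRTP801 against WT shRTP801 and 9.68% for the interaction.

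Nearly all mature reads came from the 3′ end. Reads ending at the 3′ end made up 97.9% of the mature reads of the family, reads from neither end 1.85%, reads from the 5′ end 0.210%, and 6 reads covered the whole mature tRNA. By isodecoder, over all libraries, 3′ reads were 97.3% to 99.4%, against a median of 94.3% for the 13 other leucine isodecoders and 89.6% for the 209 isodecoders with at least 100 reads. Of those 209, 65 were at or above the lowest Leu-CAA value, so a high share of 3′ reads was not particular to the family. Per mouse, the 3′ share was between 95.5% and 99.3%, and groups differed by at most 0.374 percentage points (exact permutation tests over the 4 comparisons, p from 0.655 to 0.962). Reads of the 5′ end numbered 0 to 30 per isodecoder and library, differed by 3 reads or fewer among the 4 isodecoders in 14 of 18 libraries and were equal in 5. Reads of the 3′ end, in contrast, differed by a median of 5.20 times between the highest and lowest isodecoder. A read that matches several isodecoders may have been counted at each, so the 5′ counts of the 4 may share reads and the family sum may count such reads more than once.

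Precursor reads per mature read do not depend on the reads of other tRNAs. The log2 of this ratio was -4.58, -6.42, -6.28, -7.64 and -5.39 in WT shCT mice 3, 5, 6, 11 and 15 and -4.98, -5.34 and -2.36 in 5xFAD shCT mice 1, 16 and 18. Mouse 18 stood highest of all 18 mice, while mice 1 and 16 lay within the WT shCT range. The means were -6.06 ± 1.15 (SD, n = 5) and -4.22 ± 1.63 (SD, n = 3), a difference of 1.84 (exact permutation p = 0.0893). In WT shRTP801 mice 4, 10, 17 and 21 the values were -6.99, -5.66, -7.38 and -5.76. In 5xFAD shRTP801 they ran from -7.38 over a median of -6.41 to -3.48 (mouse 2), a mean difference of -1.83 from 5xFAD shCT (exact permutation p = 0.119). This last difference was -2.35 without 5xFAD shRTP801 mouse 2 (exact permutation p = 0.0179) and -0.90 without 5xFAD shCT mouse 18 (p = 0.429), so single mice decided its size. WT shRTP801 against WT shCT and 5xFAD shRTP801 against WT shRTP801 gave p = 0.587 and p = 0.700 (exact permutation tests). Each locus set against its own isodecoder, with 0.5 added to the locus count, gave p from 0.0893 to 0.944 over the 4 comparisons (exact permutation tests), with differences between 5xFAD shCT and WT shCT of 1.95 at 2-1, 1.79 at 3-1, 1.47 at 4-1 and 0.998 at 1-1.

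**Figure D5:**
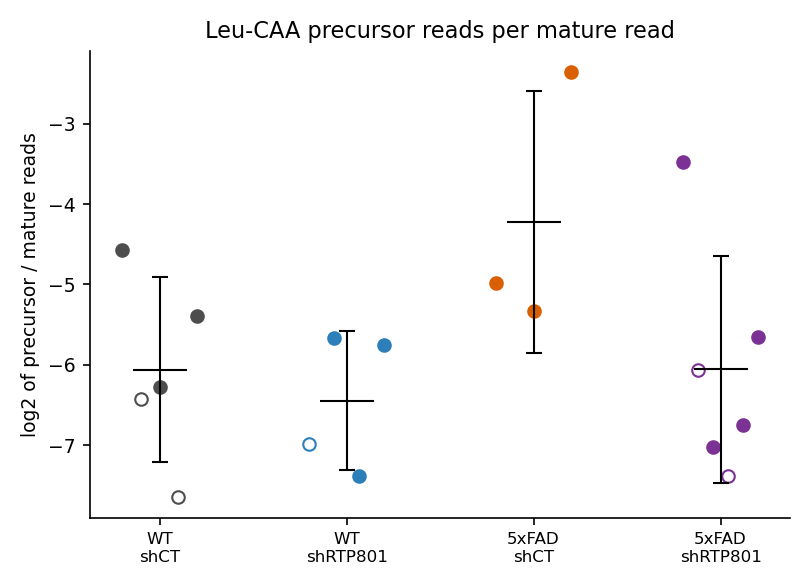
Log2 of Leu-CAA precursor reads per Leu-CAA mature read, 1 point per mouse, with the mean and SD of each group; open points are the 5 libraries with more than 100000 precursor reads. 5xFAD shCT mouse 18 (-2.36) and 5xFAD shRTP801 mouse 2 (-3.48) are the highest points, and the groups overlap.

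Over the 18 libraries, the pre-tRNA families whose log2 percentage ran closest to that of Leu-CAA were SeC-TCA, Ile-TAT and Arg-TCT. After each family was centred on its own mean, their root mean square differences from Leu-CAA were 1.18, 1.24 and 1.30 log2 units, against a median of 2.25 over 47 families and a spread of Leu-CAA itself of 2.23. In 5xFAD shCT mice the means were 0.438% ± 0.140 for SeC-TCA, the selenocysteine tRNA, 1.16% ± 0.605 for Ile-TAT and 0.111% ± 0.0469 for Arg-TCT (SD, n = 3), and in WT shCT mice 0.131% ± 0.181, 0.466% ± 0.581 and 0.0557% ± 0.0653 (SD, n = 5). All 3 had their highest group mean in 5xFAD shCT, as Leu-CAA did. The mature families closest to Leu-CAA were Leu-TAA, Leu-CAG and Ser-GCT, with root mean square differences of 0.379, 0.383 and 0.690 against a median of 1.45 over 47 families. The libraries share depth and composition across families, and such likeness is a description over 18 libraries.

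In all, 164 comparisons of Leu-CAA values were made with the exact permutation test, and 7 (4.27%) had p under 0.05. That share is no larger than the threshold itself gives over unrelated values, but many of these comparisons share reads and mice. The 164 also hold mature shares, compositions and read types, whereas all 7 concerned precursor reads. The pooled share therefore does not weigh the precursor values by themselves. Adjusted by Benjamini-Hochberg over the 164, the lowest exact permutation p was 0.887. The group sizes allow no exact p below 0.0179 in the first comparison and 0.0119 in the second. A few values at these limits could not have passed this adjustment, so it cannot decide on single measures. The 7 were the family precursor share in the first and second comparison, its share of all reads in the first, locus 2-1 in both, and loci 3-1 and 4-1 in the second.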

How the data were processed

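Small RNA of both hippocampi was cut from gels, hydrolysed and sequenced as 50 base pairs, paired-end. Per the labels and methods, the authors counted reads with tRAX on build mm39; its version and aligner are not given in the sources used here. Each deposited value is a normalized signal, reads divided by a size factor of the library: 100% of values were whole multiples (within 1e-06) of the lowest one, and reads were recovered so. Of the small RNA genes, 324 near-identical copies (read counts within 5%) were counted once in library totals.

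A share is reads divided by all precursor or mature reads of the mouse. Groups followed the labels, with 1 library a mouse; mouse numbers are unique, so nothing was paired. Group means were compared with two-sided exact permutation tests over every arrangement of the mice. The test was checked on seeded values against that of scipy 1.17.1. Percentages plus 0.001, as log2, were fitted with limma 3.58.1 (R 4.3.3) over all loci or isodecoders with a mean of at least 0.001%, all 4 groups together, p-values being adjusted by Benjamini-Hochberg and called under 0.05. These limma log2 changes understate low loci. Alternatives were edgeR 4.0.16, DESeq2 1.42.0, other pseudocounts, filters and scalings, and leaving out mice. The scripts were tested on simulated data. The members, lists and the rule naming every Leu-CAA locus and isodecoder and the 3 most alike families of each class were chosen with earlier results of these data known. Leu-CAA gene lengths are RefSeq's for GRCm38.p6, and no coordinates are given.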

Additional observations from a re-analysis of the deposited data

Results flagged for a closer look

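In 42 groups of 4 to 6 mice examined over the Leu-CAA measures, 7 held a mouse apart from the others of its group. The rule sets the gap to the nearest mouse against the range of the group. Its chance rate of about 1 in 20 groups holds for normal values, which these shares were not shown to be. The measures are also not independent, so no excess is read from the 7. 5xFAD shRTP801 mouse 2 stood above its group in the precursor share of locus 1-1 (0.0620%) and of locus 4-1 (0.0666%). 5xFAD shRTP801 mouse 8 stood above its group in the mature share of the family (0.238%), of isodecoder 2 (0.0821%) and of isodecoder 3 (0.0979%). WT shRTP801 mouse 17 stood above its group in the mature share of isodecoder 3 (0.240%). 5xFAD shRTP801 mouse 19 stood above its group in the share of 5′ reads among mature Leu-CAA reads (0.512%).

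The difference between 5xFAD and WT mice in the change under shRTP801 was compared by exact permutation of treatment within genotype over all 18 libraries. The null of this permutation is no change in either genotype. The exact permutation p was under 0.05 in the precursor share of the family (-0.747 percentage points, p = 0.0251), of locus 2-1 (-0.356, p = 0.0159) and of locus 4-1 (-0.0540, p = 0.0290). Without the 5 libraries with more than 100000 precursor reads, none had p under 0.05 (exact permutation p = 0.0957, p = 0.0586 and p = 0.141), and limma gave 0 of 4 loci with an unadjusted p under 0.05. At 4-1, p was over 0.05 without any one of 9 mice: WT shRTP801 mice 10 and 17, 5xFAD shCT mice 1 and 18 and 5xFAD shRTP801 mice 7, 8, 12, 14 and 19.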

How the results depend on the processing

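The fitted changes of the 4 loci kept their direction in all 80, 84 and 116 fitted values of 5xFAD shCT against WT shCT (1.09 to 4.40), 5xFAD shRTP801 against 5xFAD shCT (-3.11 to -0.86) and the interaction (-4.95 to -0.99), and no adjusted p of a Leu-CAA locus or isodecoder was under 0.05 (lowest 0.105). On the deposited normalized counts the median of all loci moved to -0.90 in the first comparison and to 0.66 in the second, and loci with an unadjusted p under 0.05 fell from 52 to 15 and from 25 to 5; without the 5 libraries 24 were left in the first.

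The family precursor share in the first comparison had a log2 difference of 3.43 on the log2 percentage (exact permutation test, p = 0.125), 1.75 without the 3 libraries (p = 0.0571), 1.34 without the 5 (p = 0.2) and 1.75 to 2.66 without single mice. In the second, it was -2.28 on the log2 percentage (exact permutation p = 0.0714), -1.23 against all reads, -1.46 without the 3, -1.18 without the 5 and -2.22 to -1.46 without single mice. For WT shRTP801 against WT shCT it was -0.078 to 0.93 without single mice. For 5xFAD shRTP801 against WT shRTP801 it was -0.13 without the 3 and -0.49 to 0.45 without single mice. The interaction was -0.559 points without the 5 and -0.976 to -0.605 without single mice.

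The mature share of 5xFAD shRTP801 against 5xFAD shCT turned to 0.58 against all reads, 0.42 on deposited counts, 0.11 without the 3, 0.28 without the 5, and was -0.60 to 0.53 without single mice. Without single mice it was 0.62 to 2.42 for WT shRTP801 against WT shCT and -1.61 to 0.27 for 5xFAD shRTP801 against WT shRTP801. The log2 precursor per mature read was -2.39 to -0.90 for 5xFAD shRTP801 against 5xFAD shCT and -0.13 to 0.65 against WT shRTP801.

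The difference in 3′ share without single mice was -0.252 to 0.608 points in the first comparison, -0.0261 to 0.663 in the second (-0.0261 without the 3), -0.144 to 1.10 for WT shRTP801 against WT shCT and -0.692 to 0.555 for 5xFAD shRTP801 against WT shRTP801 (-0.0733 with isodecoders weighted equally). Adjusted calls over all precursor loci were 0 to 1 in the first comparison and in WT shRTP801 against WT shCT and 0 to 8 in the interaction without single mice (1 without WT shCT mouse 15, 8 without WT shRTP801 mouse 4), and DESeq2 gave 1 mature isodecoder in WT shRTP801 against WT shCT. The causes of these changes were not tested. The settings without the 3 or the 5 libraries and the permutation for the interaction were added after the data were seen. No paired analysis was possible because every mouse has a number of its own. Few reads limit loci 1-1 and 4-1 most, with a median of 10.5 and 9 reads a library.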
